A study of Mus musculus with 10 samples.

Results

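The mouse genes listed as the AT-rich interaction domain (ARID) family were followed in crypts that had lost one of them, Arid3a. The members were taken by name, without use of their measured levels, though with earlier results of these data known. They were Arid3a, Arid3b, Arid1a, Arid1b, Arid2, Arid4a, Arid4b, Arid5a, Arid5b and Jarid2, 10 of the 54838 genes listed for each library. The question was whether any other member was raised where Arid3a was deleted. RNA from intestinal crypts was sequenced from 5 WT animals and 5 Arid3a conditional knockout animals (cKO), 1 library per animal. The cKO animals were VillinCre-ERT2+/-; Arid3a fl/fl, a model in which a Cre recombinase driven by the Villin promoter deletes Arid3a in intestinal epithelial cells after tamoxifen. Both genotypes received tamoxifen on 3 consecutive days, and crypts were taken 1 month after the first dose. Neither the alleles or transgenes of the WT animals nor the age of any animal was given in the sources used here. The animal codes of the WT and cKO libraries start with different letters and share no stem, so colony or litter and genotype cannot be told apart.

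The ARID domain is a DNA-binding fold that some members use to recognise AT-rich sequence and others to bind DNA with little sequence preference. ARID3 proteins are transcription factors, and ARID3A, also called Bright, is known from B lymphocytes, where it binds the immunoglobulin heavy chain locus. ARID1A, ARID1B and ARID2 are subunits of SWI/SNF chromatin remodelling complexes, ARID4A and ARID4B belong to the SIN3 histone deacetylase complex, ARID5B works with the demethylase PHF2, and JARID2 is a cofactor of Polycomb repressive complex 2 (PRC2). The KDM5 histone demethylases also carry an ARID domain and were followed beside the 10 members, as was Arid3c, the remaining ARID3 gene.

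Short stretches of transcript sequence show how far Arid3a reads can be told from those of its paralogs. Between Arid3a and every other ARID gene followed here, the longest identical run on the transcript strand was 14 to 27 bases. With Arid3b it was 17 bases, in coding sequence of exon 5 of both Arid3a-201 (GRCm38 chr10:79948967-79948996, plus strand) and Arid3b-209 (GRCm38 chr9:57798089-57798118, minus strand), shown here in capitals within 30 bases of each transcript.
Arid3a: aaactgTGGAGGGAGATCACCAAggggctc
Arid3b: aaaatcTGGAGGGAGATCACCAAaggcctg
With Arid3c it was 20 bases, in coding sequence of exon 4 of Arid3a-201 (GRCm38 chr10:79946492-79946521) and exon 3 of Arid3c-204 (GRCm38 chr4:41728090-41728119, minus strand).
Arid3a: aactgGATGCGGACCCCAAGAGGAAagagt
Arid3c: aactcGATGCGGACCCCAAGAGGAAggagt
RSEM, the program that estimated the counts, divides a read among genes when it matches several, which leaves fractional counts. The counts of all 10 members were whole in all 10 libraries. Kdm5a was the only gene among the members and the other ARID genes tested that had fractional counts, in 9 libraries.

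The study's own quantitative PCR primers for Arid3a are shown because they mark the part of the transcript that such an assay reads. Capitals mark the bases at which each primer differs from its closest match in any Arid3b transcript, 7 bases for the forward and 6 for the reverse primer.
Forward: AggcCgccTaCCtgTaTctt
Reverse: AgGtgCTgtaggaGGtggtg
Both matched coding sequence of 4 of the 5 annotated Arid3a transcripts, in exon 7 (GRCm38 chr10:79950659-79950678) and exon 9 (GRCm38 chr10:79951758-79951777) of the 9 exons of Arid3a-201, and they span 403 bases of it. The deposited values cover whole genes, so reads from deleted and retained exons cannot be told apart in them.

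Each library held 27050455 to 31053622 expected counts, and 14719 genes passed the filter on low counts, the 10 members among them. Genotype was tested across all of these genes with edgeR's quasi-likelihood test, and levels are given as CPM, the count relative to the TMM-normalised library size, as mean ± SD over 5 animals. An adjusted p under 0.05 was called for 28.3% of genes, 15.6% higher and 12.7% lower in cKO, and the CPM of the genotypes did not overlap for 19.6%. The crypt label was checked with markers: Epcam, a marker of epithelium, was at 1154 to 1437 CPM and Olfm4, of crypt base cells, at 3314 to 7113 CPM over all libraries. All 10 enterocyte markers rose in cKO, with summed levels of 1765 to 8592 CPM in WT and 9987 to 18809 CPM in cKO. Of 9 crypt epithelium markers 5 fell, Olfm4 among them (log2 fold change -0.50, edgeR adjusted p = 0.025), and 1, Vil1, rose. The part of these shifts in the results that follow was not tested, and in bulk RNA fewer cells of a type and less RNA per cell cannot be told apart.

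Arid3a (ENSMUSG00000019564, GRCm38 chr10:79927043-79955018, plus strand) was the only member that passed the test, and it fell. Its expected counts were 55, 60, 81, 80 and 74 in WT libraries 1 to 5 and 9, 14, 14, 26 and 31 in cKO libraries 1 to 5. In CPM these were 1.91, 2.07, 2.75, 2.68 and 2.69 in WT and 0.303, 0.516, 0.490, 0.884 and 1.17 in cKO. Every cKO library lay below every WT library, and cKO 4 and cKO 5 kept the most. The mean went from 2.42 ± 0.397 CPM in WT to 0.673 ± 0.350 CPM in cKO, a log2 fold change of -1.84 (SE 0.32, 95% interval -2.53 to -1.16, edgeR adjusted p = 0.00204). This leaves 0.278 of the WT level, with an interval of 0.173 to 0.448. A two-sided exact permutation test over all assignments of the animals to groups of 5 gave p = 0.00794, the smallest it can give. In TPM Arid3a was also the least abundant member in both genotypes, so these values rest on few reads.

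**Figure D1:**
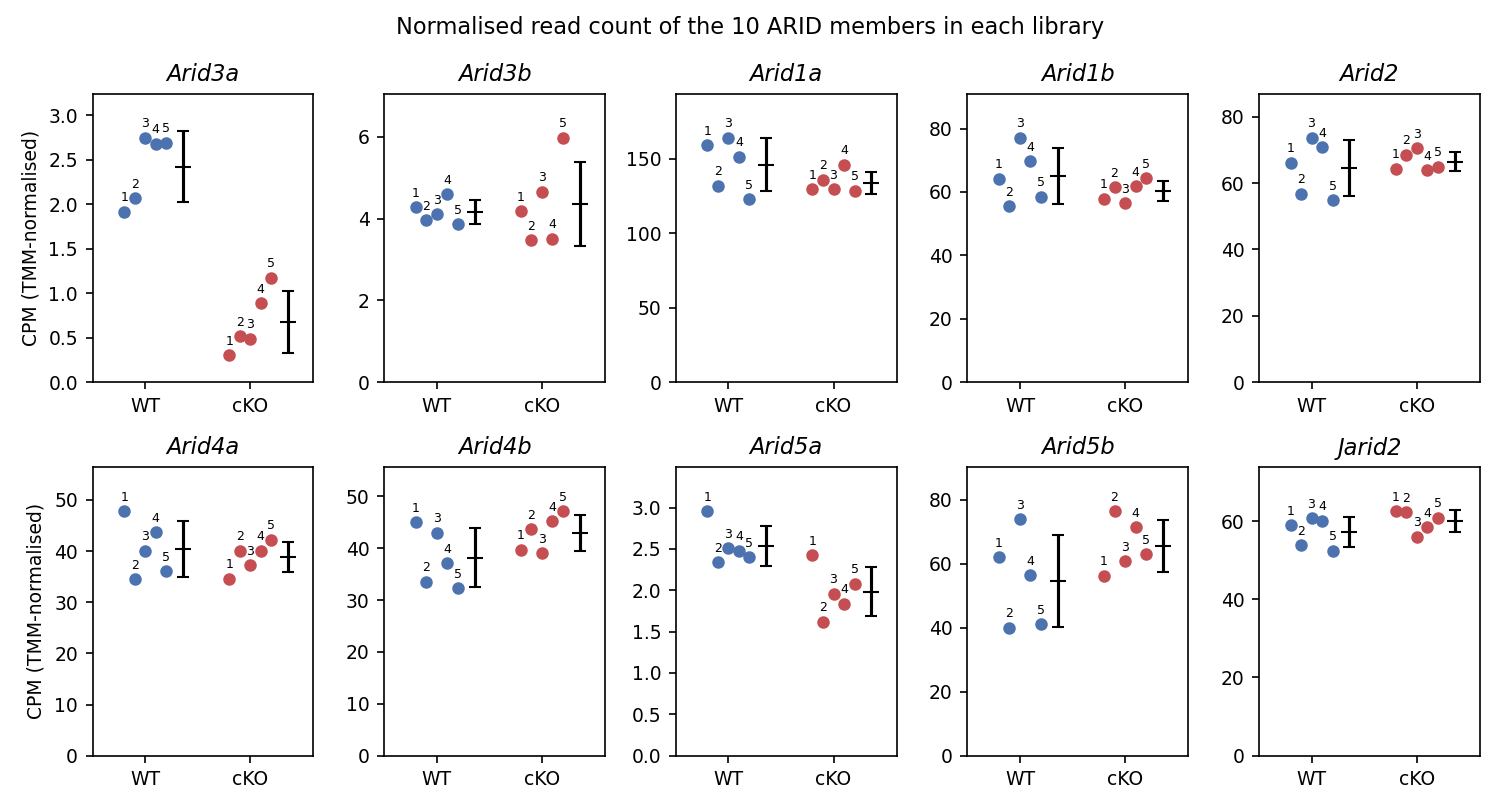
TMM-normalised CPM (vertical axis, from 0) of each of the 10 ARID members in each library, numbered by replicate, with WT in blue and cKO in red and black bars for mean and SD over 5 animals. Arid3a is the only member whose genotypes do not overlap, with 1.91 to 2.75 CPM in WT and 0.303 to 1.17 CPM in cKO.

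Villin-driven Cre acts in epithelium and Arid3a is also known from B cells, so B cell markers were set beside it. The summed level of 8 B cell markers was 60.0, 19.8, 52.2, 56.3 and 4.15 CPM in WT libraries 1 to 5 and 2.83, 2.99, 4.13, 11.7 and 28.8 CPM in cKO libraries 1 to 5. All 8 were tested and 1, Cd79b, fell (log2 fold change -1.51, edgeR adjusted p = 0.023), a share near the 12.7% of all genes that were lower. DESeq2 called 2 of the 8 and limma-voom 1. The median log2 fold change of the 8 was -1.99, and their sums overlapped between genotypes. Pax5, which defines the lineage, was at 0 in 1 library of each genotype. The libraries with the highest remaining Arid3a, cKO 4 and cKO 5, were also those with the highest B cell sums within cKO. They had the highest T cell, myeloid, stromal and endothelial, and enterocyte marker sums within cKO as well, so this ranking was not particular to B cells. Within WT the ranking did not hold: WT 1 had the highest B cell sum, 60.0 CPM, and the lowest Arid3a, 1.91 CPM. WT 5 and cKO 3 had B cell sums of 4.15 and 4.13 CPM, and their Arid3a levels were 2.69 and 0.490 CPM. Of the 5 plasma cell markers tested, 2 fell, Jchain and Sdc1, beside 12.7% of all genes. Jchain did not overlap between genotypes, as for 19.6% of all genes. It was at 17.9 to 32.6 CPM in WT and 3.52 to 10.9 CPM in cKO (log2 fold change -1.95, edgeR adjusted p = 0.00196). The plasma cell sums overlapped (291 to 422 CPM in WT and 287 to 335 CPM in cKO). Most of each sum was Xbp1 (mean 191 CPM in WT and 194 in cKO) and Sdc1 (137 and 103), so the sums say little about Jchain. Cd4 of the T cell list (log2 fold change -1.69, edgeR adjusted p = 0.011) and Pecam1 of the stromal and endothelial list (-1.19, edgeR adjusted p = 0.00984) fell. In the myeloid list 0 of 7 markers passed, beside 28.3% of all genes. The sums of these 3 lists, T cell, stromal and endothelial, and myeloid, overlapped. Of the myeloid markers 2, Csf1r and Itgax, had an unadjusted edgeR p under 0.05, and DESeq2 and limma-voom each called 1 of the 7. The part of lymphocyte RNA in the remaining Arid3a was not tested beyond these values.

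**Figure D2:**
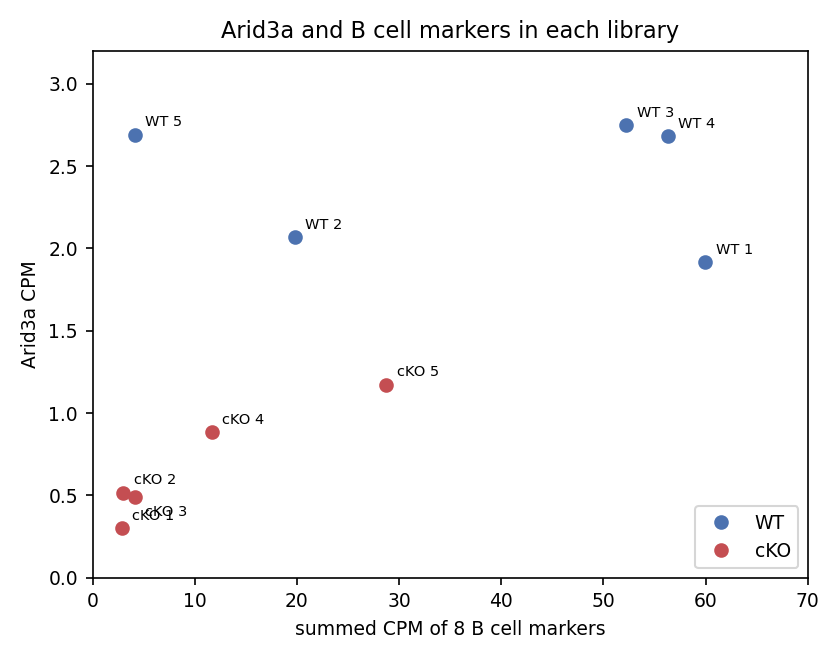
Arid3a CPM (vertical axis) against the summed CPM of 8 B cell markers (horizontal axis) in each of the 10 libraries, WT in blue and cKO in red. WT 5 sits at the left edge with 4.15 CPM of markers and 2.69 CPM of Arid3a, above the 3 cKO libraries with similar marker sums. Within cKO the marker sums and Arid3a are highest in cKO 4 and cKO 5. Within WT, WT 1 has the highest marker sum, 60.0 CPM, and the lowest Arid3a, 1.91 CPM.

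Arid3b (ENSMUSG00000004661, GRCm38 chr9:57790353-57836793, minus strand) is the other ARID3 gene among the members. Its counts were 123, 115, 121, 137 and 106 in WT and 124, 94, 133, 103 and 158 in cKO, libraries 1 to 5. In CPM these were 4.28, 3.96, 4.11, 4.59 and 3.86 in WT and 4.18, 3.47, 4.65, 3.50 and 5.98 in cKO. The cKO libraries lay on both sides of the WT range: 2 were below it and 2 above it. The means were 4.16 ± 0.289 CPM and 4.36 ± 1.03 CPM, a log2 fold change of 0.07 (SE 0.16, edgeR adjusted p = 0.786). The 95% interval ran from -0.28 to 0.41, so a rise of more than 1.33-fold lay outside it, while a smaller rise or a drop did not. An exact two-sided permutation test gave p = 0.833. The small positive sign rested on cKO 5, and without that library the log2 fold change was -0.07. The spread in cKO (CV 23.7%) was wider than in WT (6.96%).

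On the per-length scale, TPM as deposited by the authors, the ARID3 genes can be added up. Arid3a TPM was 0.5, 0.49, 0.71, 0.74 and 0.87 in WT and 0.11, 0.14, 0.11, 0.25 and 0.26 in cKO (exact permutation p = 0.00794). Arid3b TPM was 2.71, 1.61, 1.91, 2.51 and 1.71 in WT and 1.66, 1.43, 2.19, 2.43 and 3.03 in cKO (exact permutation p = 0.952). Arid3b was thus the more abundant of the pair in every library, 1.97 to 5.42 times Arid3a in WT and 9.72 to 19.9 times in cKO. These ratios, and the Arid3a shares below, depend on the gene lengths that RSEM estimated. The WT extremes were WT 5, with an Arid3a length of 3751 bases, and WT 1, with an Arid3b length of 2206 bases. The rest of WT had 5132 to 5361 bases for Arid3a and 2631 to 3161 bases for Arid3b. Arid3c was at 0 counts in every library except cKO 2, which held 1 count, and it was not tested; a count of 0 allows up to 3 counts in a library. The sum of the 3 genes was 2.75 ± 0.482 TPM in WT and 2.33 ± 0.688 TPM in cKO, with overlapping libraries. The share of Arid3a in that sum was 15.6 to 33.7% in WT and 4.78 to 9.33% in cKO.

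**Figure D3:**
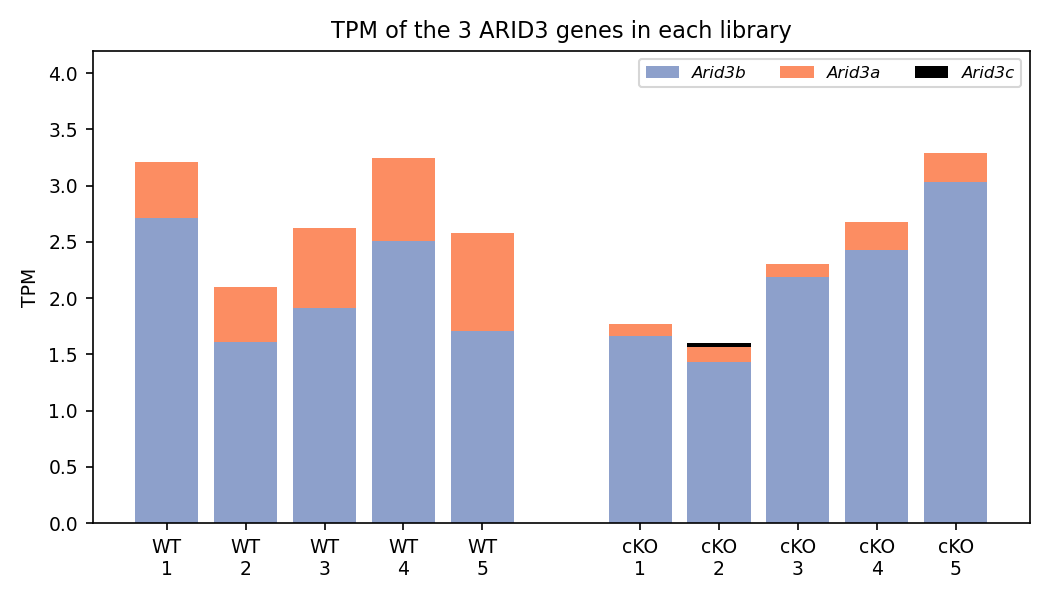
Stacked TPM (vertical axis, from 0) of Arid3b, Arid3a and Arid3c in each library. The Arid3a segment shrinks from 0.49 to 0.87 TPM in WT to 0.11 to 0.26 TPM in cKO, while the Arid3b segment overlaps between genotypes, and the sums run from 2.10 to 3.25 TPM in WT and from 1.6 to 3.29 TPM in cKO.

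Of the 9 members other than Arid3a, 0 passed the test, against 28.3% of all genes. At an unadjusted edgeR p under 0.05 there was 1, Arid5a, against 40.5% of all genes. DESeq2 and limma-voom also called 0 of the 9, and DESeq2 gave 0 at an unadjusted p under 0.05. The CPM of WT and cKO overlapped for all 9, while 19.6% of all genes did not overlap. Their median log2 fold change was 0.04, beside -0.03 for all genes tested, and 5 of the 9 were positive. Their median absolute log2 fold change was 0.11, beside 0.23 for all genes. The upper 95% bounds stayed at or under 1.33-fold except for Arid5b at 1.54-fold, and the lowest lower bound was 0.613-fold, for Arid5a. A p that misses the threshold does not show equal levels, and these bounds give the changes that the data still allow.

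**Figure D4:**
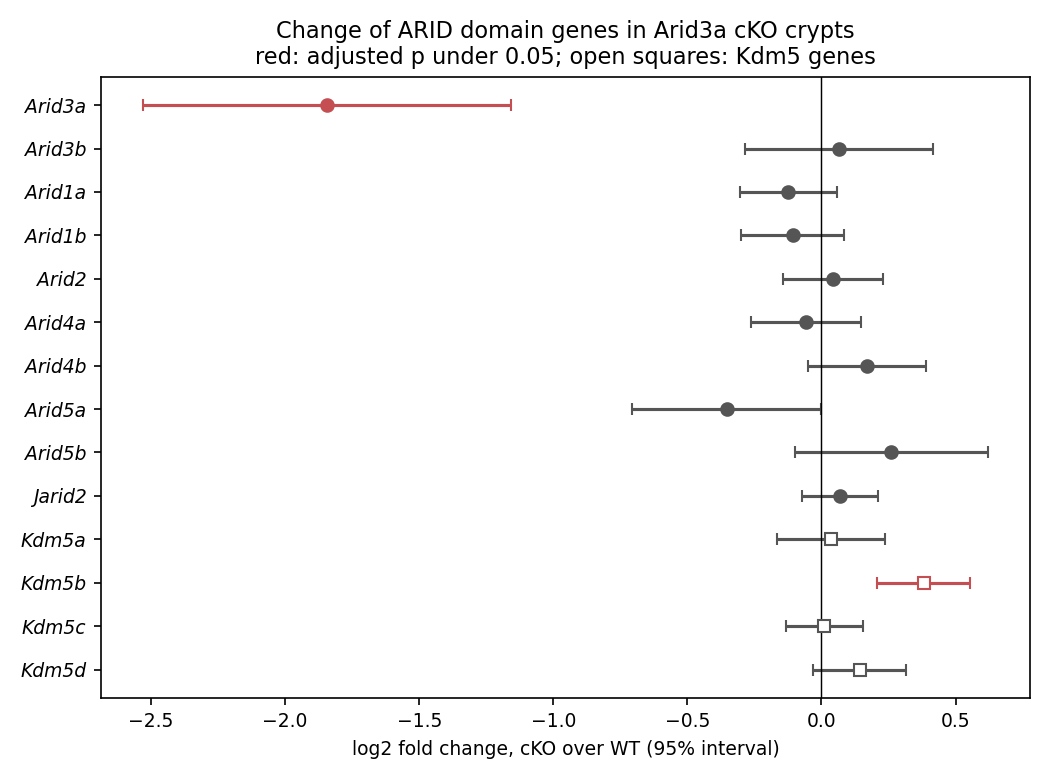
Log2 fold change of cKO over WT (horizontal axis) with 95% intervals for the 10 members (filled circles) and the 4 Kdm5 genes (open squares), with genes past the adjusted threshold in red. Arid3a at -1.84 and Kdm5b at 0.38 are the genes past the threshold, and the intervals of the remaining genes other than Arid5a include 0.

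The SWI/SNF members were abundant. Arid1a (GRCm38 chr4:133679008-133756769), the subunit that defines the canonical BAF complex together with its alternative Arid1b, was at 146 ± 17.7 in WT and 134 ± 7.36 CPM in cKO (log2 fold change -0.12, edgeR adjusted p = 0.292). Arid1b (GRCm38 chr17:4994332-5347656) was at 65.0 ± 8.69 and 60.4 ± 3.21 CPM (-0.11, edgeR adjusted p = 0.389). Arid2 (GRCm38 chr15:96287518-96404992), the ARID subunit of the PBAF complex, was at 64.5 ± 8.38 and 66.5 ± 2.90 CPM (0.04, edgeR adjusted p = 0.731). None of the 3 passed the test, their libraries overlapped between genotypes, and for Arid1a and Arid1b the estimate was below 0, on the side opposite to a rise.

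The SIN3 members Arid4a and Arid4b bind the retinoblastoma protein. Arid4a (GRCm38 chr12:71015990-71098592) had 40.4 ± 5.49 CPM in WT and 38.8 ± 2.94 in cKO (log2 fold change -0.06, edgeR adjusted p = 0.674). Arid4b (GRCm38 chr13:14063232-14199603) was at 38.2 ± 5.66 and 42.9 ± 3.51 CPM (0.17, edgeR adjusted p = 0.226). Arid4b overlaps Ggps1 on the opposite strand, which held 674 to 842 counts per library, and the strand setting of the counting was not given in the sources used here. Jarid2 (GRCm38 chr13:44729474-44921643) was at 57.2 ± 3.84 and 60.0 ± 2.80 CPM (log2 fold change 0.07, edgeR adjusted p = 0.449).

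The ARID5 pair leaned in opposite directions in CPM without passing the test. Arid5a (GRCm38 chr1:36307733-36324029), an RNA-binding protein that stabilises inflammatory transcripts in immune cells, was at 2.96, 2.34, 2.51, 2.48 and 2.40 CPM in WT and 2.43, 1.62, 1.96, 1.84 and 2.08 CPM in cKO. Only cKO 1 reached the WT range. The log2 fold change was -0.35 (95% interval -0.71 to 0.00, edgeR adjusted p = 0.123), and the exact permutation p was 0.0238 before any adjustment. Arid5b (GRCm38 chr10:68092520-68278740) was at 62.0, 40.0, 74.0, 56.5 and 41.2 CPM in WT and 56.3, 76.5, 60.7, 71.3 and 62.9 CPM in cKO. WT libraries 2 and 5 were low and the rest of WT overlapped with cKO. The log2 fold change of Arid5b was 0.26 (95% interval -0.10 to 0.62, edgeR adjusted p = 0.257). In TPM, Arid5b had means of 10.85 in WT and 10.79 in cKO (log2 difference 0.06, exact permutation p = 0.794). The log2 difference of Arid5a in TPM was -0.39 (exact permutation p = 0.175). The lean of Arid5b and the permutation p of Arid5a thus depended on the scale.

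The low values of WT 2 and WT 5 were shared across the family. These were the 2 lowest WT libraries for 9 of the 10 members, all but Arid3a, whereas they were the 2 lowest for 19.9% of all genes tested. Outside the members they were also the 2 lowest for Kdm5a, Kdm5b and Kdm5d, though not for Kdm5c. The CV was larger in WT than in cKO for 7 of the 10 members, all but Arid3a, Arid3b and Arid5a, a share near the 68.4% of all genes. Members share libraries, so this is 1 pattern of 2 libraries and not 9 observations. WT 2 had the highest enterocyte sum of the WT group, 8592 CPM, but that of WT 5, 4200 CPM, was in the middle of the group. These were the 2 lowest WT libraries in crypt epithelium sum, 12337 and 13644 CPM beside 15151 to 19296 CPM in the rest. They were also the 2 lowest in B cell sum, 19.8 and 4.15 CPM. In the plasma cell, T cell, myeloid, and stromal and endothelial sums they were not the 2 lowest. The part of cell composition in this pattern was not tested. WT 2 and WT 5 were then left out together, an alternative added after the data were seen. In this fit Arid3a was at -1.83 and Arid3b at 0.03 on the log2 scale, and Arid5b went to 0.06. Arid1a passed the threshold as lower in cKO (-0.21, edgeR adjusted p = 0.0259). No member passed as higher. These 2 libraries were picked as the lowest, so leaving them out raises the WT mean of the 9 members. The direction of the shift in these members was set by that choice, and this fit does not bear on whether they rose or fell.

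RSEM also reports a length for each gene that is weighted by the isoforms in use, and it was compared as a separate readout. None of the members passed in limma (0 of 10, beside 0.127% of 11783 genes), and 2 had an unadjusted p under 0.05, as did 13.1% of all genes. Arid5b was one, with lengths of 6676, 7231, 6397, 6390 and 7199 bases in WT and 7572, 7455, 7391, 7370 and 7358 bases in cKO. All cKO lengths were above all WT lengths (log2 difference 0.13, limma adjusted p = 0.202), and within WT the longest were again those of WT 2 and WT 5. How many of all genes have lengths apart in this way was not computed, so the separation of Arid5b cannot be weighed. Arid1b was the other member with an unadjusted p under 0.05, with a log2 difference of 0.04 (limma adjusted p = 0.210).

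In TPM only part of the order of the members was common to all libraries. Over all 10 libraries the means were 21.9 for Arid1a, 16.2 for Jarid2 and 12.5 for Arid4a, and these 3 were in this order in 10 of 10 libraries. Arid5b, Arid4b, Arid1b and Arid2 followed at 10.82, 10.42, 10.05 and 9.95 TPM, and neighbours among these were in order in only 5 or 6 of 10 libraries, so their ranks were not separable. Arid4a exceeded Arid5b in 7 of 10. Arid3b at 2.12, Arid5a at 1.44 and Arid3a at 0.418 TPM came last, each below its upper neighbour in all 10 libraries. The 10 genes summed to 100.1 ± 19.0 TPM in WT and 91.5 ± 6.01 TPM in cKO, with overlapping libraries. By exact permutation test on log2(TPM + 0.1), Arid3a was the only 1 of 10 members with p under 0.05, but without WT 5 there were 3, since Arid1a and Arid1b were then lower in cKO (exact permutation p = 0.0397 and 0.0317).

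Outside the 10 members, 1 of the 4 other ARID domain genes tested rose, beside 15.6% of all genes, so the count does not set these genes apart. Kdm5b (GRCm38 chr1:134560171-134635285), which removes methyl groups from lysine 4 of histone H3, was at 41.9, 35.9, 38.2, 36.6 and 35.1 CPM in WT and 50.1, 45.1, 43.1, 53.4 and 52.8 CPM in cKO. Every cKO library was above every WT library (37.6 ± 2.69 and 48.9 ± 4.63 CPM, log2 fold change 0.38, SE 0.08, edgeR adjusted p = 0.00537). The genotypes also did not overlap in CPM for 19.6% of all genes. On the TPM scale the libraries overlapped for Kdm5b (7.43 ± 1.04 and 8.80 ± 1.08 TPM, exact permutation p = 0.0635). The enterocyte marker sums were apart in the same direction. Kdm5a, Kdm5c and the Y-linked Kdm5d had log2 fold changes of 0.03, 0.01 and 0.14 and did not pass the test.

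Promoter windows of 300 bases, from 250 before to 50 after the start, were searched for ATTAA, the core letters of the AT-rich sequence that ARID3A is known to bind, on both strands (ATTAA or TTAAT). RefSeq windows on GRCm38.p6 were matched for 7 of the 10 members, 10 windows in all. Arid3a itself, Arid2 and Arid4a had no matched window. None of the 10 held the letters, beside 27.1% of 32851 windows in the table. The members' windows were richer in GC (median 63.5%, all windows 52.7%), and among the 27153 windows with at least the GC share of the lowest member window, 19.7% held the letters. That cut lay at 43.3% GC, well under the members' median, so this set is not matched to the members for GC. Some members have 2 windows, so the 10 are not independent. Among the other ARID domain genes with a window, Kdm5b, which rose, and Kdm5d, which did not pass the test, held 1 match each, starting 138 and 146 bases before the start site. The windows of Kdm5b (chr1:134559928-134560227, plus strand) and of the upstream start of Arid3b (chr9:57836730-57837029, minus strand) are shown because these are the gene that rose and the other ARID3 member. Capitals mark the match.
Kdm5b: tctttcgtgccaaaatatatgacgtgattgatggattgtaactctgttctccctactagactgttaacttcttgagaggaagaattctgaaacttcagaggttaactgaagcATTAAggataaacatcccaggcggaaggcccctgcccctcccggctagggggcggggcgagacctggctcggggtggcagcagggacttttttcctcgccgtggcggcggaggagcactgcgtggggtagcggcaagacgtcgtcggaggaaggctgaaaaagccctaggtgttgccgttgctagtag
Arid3b: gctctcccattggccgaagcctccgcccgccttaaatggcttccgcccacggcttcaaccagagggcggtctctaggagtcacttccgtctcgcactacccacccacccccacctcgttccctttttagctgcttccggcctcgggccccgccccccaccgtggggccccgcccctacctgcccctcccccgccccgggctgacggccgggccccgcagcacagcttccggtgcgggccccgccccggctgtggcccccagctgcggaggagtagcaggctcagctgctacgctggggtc
A match of 5 letters is a description of the window and not a binding site.

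The complexes that hold the ARID proteins were read from lists of their subunits, to set the members beside their partners. Of 25 SWI/SNF genes listed 23 were tested, 7 fell and 1 rose, with a median log2 fold change of -0.12, beside 12.7% of all genes lower, 15.6% higher and a median of -0.03. Actl6a, an actin-related subunit, fell from 88.0 ± 7.54 to 67.8 ± 5.15 CPM (-0.38, edgeR adjusted p = 0.00455), and Smarcb1, a core subunit, from 88.4 ± 6.72 to 70.9 ± 2.74 CPM (-0.32, edgeR adjusted p = 0.00469). Bcl7a fell as well (-0.34), and Ss18l1 rose (0.38). The ATPase Smarca4 was at 202 ± 25.0 and 173 ± 4.92 CPM (edgeR adjusted p = 0.0588), and Pbrm1, which pairs with ARID2 in PBAF, was at 103 ± 19.4 and 101 ± 8.11 CPM. The count of calls depended on single libraries: the 8 were 4 without WT 3, cKO 1 or cKO 5, and 5 without WT 4 or cKO 2. Calls over all genes also fell in these fits, from 4167 to between 3007 and 3505.

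Of 11 PRC2 genes tested 4 fell and 1 rose, with a median log2 fold change of -0.21, where 28.3% of all genes were called. Phf19, an accessory subunit, fell from 6.23 ± 1.33 to 3.39 ± 0.677 CPM (-0.88, edgeR adjusted p = 0.0051), and the histone chaperones Rbbp7 and Rbbp4 fell by 0.34 and 0.30 on the log2 scale. Ezh1 rose (0.26, edgeR adjusted p = 0.0478), and Ezh2, the other catalytic subunit, was at 82.0 ± 7.24 and 70.6 ± 7.65 CPM (edgeR adjusted p = 0.077). The 5 calls were 3 without WT 2, WT 4, cKO 1, cKO 4 or cKO 5. Over all genes, the 4167 calls were also fewer without WT 4, cKO 1, cKO 4 or cKO 5 (3007 to 3465), but were 4684 without WT 2. The SIN3 list held 13 genes and left out Rbbp4 and Rbbp7, which were counted with PRC2 only. Of the 13 genes 3 fell (Hdac1, Hdac2 and Sap30, by 0.21, 0.20 and 0.29) and 1 rose (Sap30l, 0.42, edgeR adjusted p = 0.00887). For the list as drawn, this share was near the 28.3% of all genes. The scaffold Sin3a was at 82.2 ± 7.77 and 74.6 ± 2.05 CPM (edgeR adjusted p = 0.152). The 4 calls were 1 without WT 4, cKO 4 or cKO 5, and 2 without WT 5, fits in which calls over all genes also fell (3007 to 3771).

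Among 5 partners of ARID3 and ARID5 proteins, E2f1, the cell cycle factor that ARID3A was found to bind, fell from 22.02 ± 2.58 to 14.6 ± 1.43 CPM (log2 fold change -0.59, edgeR adjusted p = 0.00188). Rb1, the retinoblastoma gene, rose from 33.4 ± 6.33 to 51.4 ± 6.31 CPM (0.62, edgeR adjusted p = 0.00593), and Gtf2i fell (-0.32, edgeR adjusted p = 0.0241). Btk, a B cell kinase, was at 2.18 ± 0.844 and 1.22 ± 0.379 CPM (edgeR adjusted p = 0.0575), and Phf2 at 52.9 ± 5.0 and 46.4 ± 0.714 CPM (edgeR adjusted p = 0.0616). Proliferation markers are part of the crypt list, in which Pcna fell by 0.38 on the log2 scale and Mki67 did not pass. The part of these crypt marker shifts in the lower subunit levels was not tested.

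**Figure D5:**
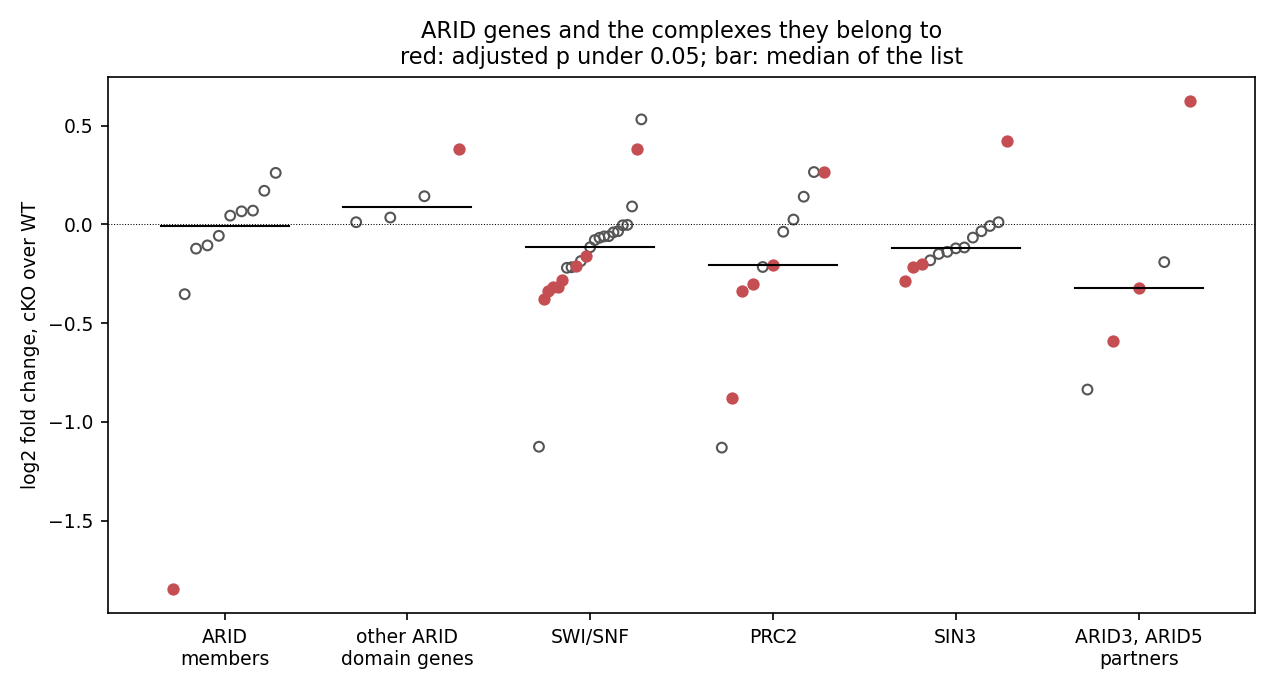
Log2 fold change of cKO over WT (vertical axis) of each tested gene in the ARID lists and in 4 lists of partner genes, with genes past the adjusted threshold in red and a bar at each list's median. Among the ARID members Arid3a alone is past the threshold, while 8 of 23 SWI/SNF, 5 of 11 PRC2, 4 of 13 SIN3 and 3 of 5 partner genes are, beside 28.3% of all genes tested.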

How the data were processed

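RNA was extracted with an RNeasy kit and libraries were made with the KAPA mRNA HyperPrep kit after poly(A) selection. The authors processed the reads with nf-core/rnaseq, in which STAR aligned them and RSEM estimated counts against the Ensembl annotation of GRCm38. For each library they deposited the expected count, TPM, FPKM, length and effective length of 54838 genes, without a filter and with the expected counts not normalized between libraries. The members, gene lists and tests were chosen with earlier results of these data known.

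After rounding of the expected counts, edgeR 4.0.16 (R 4.3.3) fitted genotype as the only term in its robust quasi-likelihood framework. The filter was filterByExpr with a minimum count of 10 and a minimum total count of 15, TMM factors were 1.00 to 1.08 in WT and 0.934 to 0.986 in cKO, and p-values were adjusted by Benjamini-Hochberg with a threshold of 0.05. The study's own model, in DESeq2, also had time as a factor, and these libraries have 1 time point. DESeq2 1.42.0 and limma 3.58.1 (voom) were alternatives, and limma on log2 length compared RSEM lengths. The tests were checked on simulated counts. Single genes were also compared by two-sided exact permutation tests on log2(CPM + 0.5) and log2(TPM + 0.1). Replicates are separate animals, and 0 of 20 pairs of libraries of the same genotype were identical. Arid3a and Arid5a have fewer than 100 counts in every library, so counting error is large for them. All 10 members, the other ARID domain genes, and in each partner list at most 4 genes with the smallest p plus Ezh2, Smarca4, Pbrm1, Sin3a and Phf2 were named with values. Gene symbols and coordinates came from GENCODE on GRCm38, and promoter windows from RefSeq on GRCm38.p6. Genes with a similar pattern were not searched for, since 10 libraries of 2 genotypes do not set a pattern apart from the genotype difference.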

Additional observations from a re-analysis of the deposited data

Results flagged for a closer look

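In 56 groups of 5 libraries screened (CPM and RSEM length of 14 genes in each genotype), 3 held a library that stood far from the other 4 by Dixon's test, and chance alone flags about 1 in 20 groups. The RSEM length of Arid3a was 3751 bases in WT 5 and 5132 to 5361 bases in the rest of WT. The length of Arid4a was 3624 bases in cKO 5 and 4195 to 4321 bases in the rest of cKO. Arid5a was at 2.96 CPM in WT 1 and at 2.34 to 2.51 CPM in the rest of WT.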

How the results depend on the processing

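The number of ARID members past the threshold was 1 (Arid3a) under all but 3 alternatives. It was 0 with at least 10 counts required in every library, where Arid3a was not tested because cKO 1 held 9, 2 with library size only, where Arid5a also passed as lower (-0.48, edgeR adjusted p = 0.0365), and 2 without WT 2 and WT 5. Leaving out 1 replicate at a time gave 1 each time, Arid3a between -2.13 and -1.65, and Arid3b between -0.074 and 0.14. Library size only shifted the median of all genes from -0.03 to -0.16 (10.5% higher and 27.4% lower, beside 15.6% and 12.7%), and under it Arid3b was at -0.069, Arid2 at -0.090, Jarid2 at -0.063, Kdm5a at -0.10 and Kdm5c at -0.12. Without WT 2 and WT 5, Arid2 was at -0.053, Kdm5a at -0.083 and Kdm5c at -0.020. These libraries were picked for low member values, which pushes such estimates down. With 1 replicate left out, Arid4a ran from -0.11 to 0.0097, Kdm5a from -0.032 to 0.078 and Kdm5c from -0.022 to 0.050. None of these reversed values was past the threshold. Kdm5b passed under every alternative (0.25 to 0.42). On the TPM scale FPKM gave 2 members (Arid1b also lower), and leaving out 1 replicate gave 1 to 3. SWI/SNF calls ran from 4 to 15, the most with library size only. The replicate block, which same-numbered animals do not pair (correlations -0.16 to 0.13), gave 3052 genes beside 4167, Arid3a at -1.94, 1 member past the threshold and 5 SWI/SNF, 3 PRC2 and 1 SIN3 call. Depth limits Arid3a, at 9 to 31 counts in cKO.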
